A study of Mus musculus with 9 samples.

Results

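The genes described here are 10 components of antigen presentation by the major histocompatibility complex (MHC): H2-K1, H2-D1, B2m, Tap1, Tap2, Psmb8 and Psmb9 on the class I side, and Cd74, H2-Ab1 and Ciita on the class II side. They were picked by name, for their role in this pathway, from the 27179 genes of the deposited count table, with earlier results of these data known. All 10 were among the 15910 genes with enough reads to be tested. Expression was measured by bulk RNA sequencing in 9 libraries of luminal epithelial cells sorted from adult mouse mammary glands, with 3 libraries for each of 3 populations. All populations came from Lin- cells, and all carried PR-cre with a YFP reporter, so that YFP marks cells in which the progesterone receptor promoter is or was active. HR- LP cells were CD14+ and YFP-, HR+ LP cells were CD14+ and YFP+, and ML cells were CD14-. ML cells are YFP+ by their sample labels but YFP- by the design text of the series. The strain and age in weeks of the mice, and the content of the lineage panel, are not given in the sources used. Since the labels do not say whether the libraries came from separate animals, p-values measure the spread between these libraries, which may be technical.

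MHC class I molecules are built on nearly all nucleated cells. Proteasomes cut cytosolic proteins into peptides, the TAP transporter carries the peptides into the endoplasmic reticulum, and there they are loaded onto a heavy chain paired with beta-2-microglobulin, which shows them to CD8 T cells. In the immunoproteasome, which is induced by interferon gamma, the catalytic subunits are exchanged for Psmb8, Psmb9 and Psmb10. MHC class II molecules are made mostly by professional antigen-presenting cells, though epithelia can be induced to make them. Their alpha and beta chains travel with the invariant chain Cd74 to endosomes, where proteases cut that chain down and H2-DM exchanges its last fragment for a peptide shown to CD4 T cells. The coactivator Nlrc5 drives class I genes and Ciita drives class II genes, both through a promoter module bound by the RFX, CREB and NF-Y factors.

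All 7 class I genes were expressed at a higher level in HR+ LP and in ML than in HR- LP, by 1.32-fold for H2-D1 to 3.68-fold for Psmb9 in the first of these comparisons. The class II genes were expressed at a few counts per 1000000 reads (CPM) or less, and Cd74 fell in HR+ LP and ML. Levels are given as CPM scaled by edgeR's TMM factors, which adjust the library totals. A gene was called where its adjusted p (edgeR's quasi-likelihood test, Benjamini-Hochberg over all 15910 tested genes) was below 0.05. In HR+ LP against HR- LP, 7 of the 10 genes were called higher and 1 lower, beside 29.9% of all tested genes, 17.2% higher and 12.8% lower. In ML against HR- LP, 7 of the 10 genes were called higher and 2 lower, beside 44.6% of all tested genes, 23.3% higher and 21.3% lower. Between ML and HR+ LP, edgeR called 0 of the 10 genes in either direction, beside 6.79% of all tested genes, 0.0943% higher and 6.7% lower. In that last comparison 0 of the 10 genes had an unadjusted p below 0.05, and DESeq2 and limma voom also called 0. Both comparisons with HR- LP use the same HR- LP libraries, so their values are not independent of each other. How many of all tested genes separated the populations without overlap was not counted. In bulk libraries fewer cells expressing a gene and less RNA per cell cannot be told apart.

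**Figure D1:**
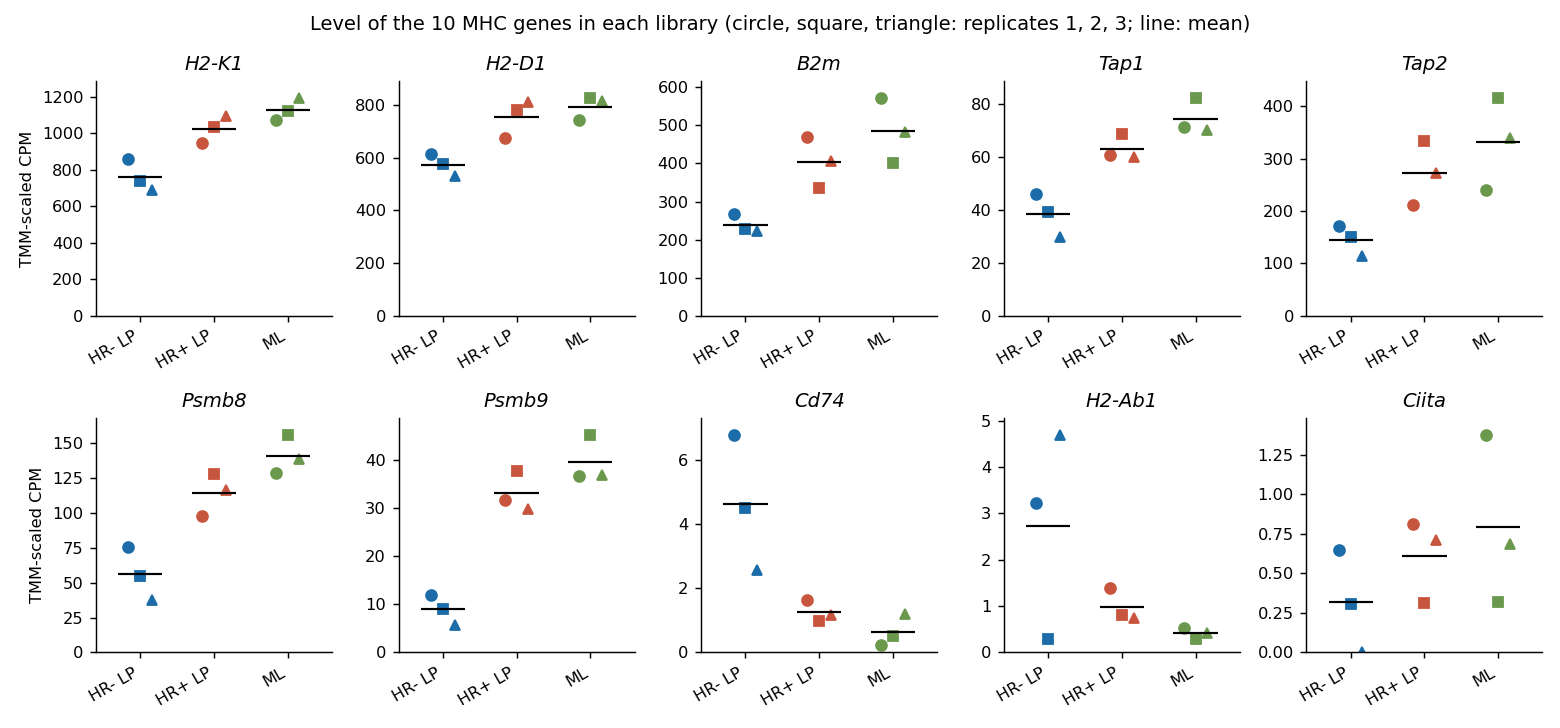
TMM-scaled CPM of each gene (vertical axes, each starting at 0) in the 9 libraries, grouped by population along the horizontal axis; points are libraries and horizontal lines are means of 3. For the 7 class I genes every HR- LP library lies below every HR+ LP and ML library, while Cd74 is highest in the HR- LP libraries. The share of all tested genes with such a separation was not counted.

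Stretches of promoter from RefSeq (GRCm38.p6, the build also called mm10) show where parts of this module were found. From a table of promoters, each running from 250 bases before to 50 bases after a transcript start, 6 of the 10 genes were searched. These were H2-K1, H2-D1, B2m, Tap1, Psmb8 and Psmb9. Any entry for Cd74 was left out of the counts by gene. In H2-K1, H2-D1 and B2m the letters TGACG, a core bound by CREB-family factors, were followed by ATTGG, the reverse complement of the CCAAT box bound by NF-Y. The spacing between them was 20 bases in all 3. This pair, on either strand with 10 to 30 bases between, was found in 3 of the 6 genes, not in Tap1, Psmb8 or Psmb9, and in 0.743% of the 32851 promoters in the table. A gene was counted if any of its promoters held a motif, whereas the shares are of single promoters. The stretches are printed 5′ to 3′ on the strand of the gene, with capitals for TGACG and for the second motif of the pair, for the interferon-response core AANNGAAA on either strand, and for the NF-kappaB type motif GGGATTCCC. Where that core is read in reverse, it appears as TTTCACTT. On the longer lists used below, the pair was found in 4 of 16 class I heavy chain and class I-like genes with a promoter entry (H2-K1, H2-D1, H2-Q7 and H2-M3) and in 1 of 8 class II chain and exchange genes (H2-Aa), so most of these genes did not hold this exact pair. Only exact letters were matched, and the RFX-bound part of the module was not searched. A gene without the pair can therefore still hold the module with other letters. H2-Q7, a nonclassical class I gene, and H2-Aa, a class II alpha chain, were chosen because they hold the pair at another spacing, of 19 and 21 bases, while H2-M3, a nonclassical gene that is not printed, holds it at 20. The H2-K1 stretch lies inside the annotated span of the gene, whose upstream end at 34000619 precedes the start used in the promoter table.
H2-K1, chr17:34000344-34000463, minus strand: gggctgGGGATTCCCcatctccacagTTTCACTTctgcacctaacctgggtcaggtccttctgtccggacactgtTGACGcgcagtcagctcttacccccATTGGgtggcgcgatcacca
H2-D1, chr17:35262918-35263037, plus strand: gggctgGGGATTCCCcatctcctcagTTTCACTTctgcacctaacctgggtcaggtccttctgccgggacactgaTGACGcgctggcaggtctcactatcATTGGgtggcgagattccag
B2m, chr2:122147534-122147653, plus strand: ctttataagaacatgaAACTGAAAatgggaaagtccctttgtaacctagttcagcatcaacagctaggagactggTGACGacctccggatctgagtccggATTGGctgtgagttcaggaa
H2-Q7, chr17:35439016-35439134, plus strand: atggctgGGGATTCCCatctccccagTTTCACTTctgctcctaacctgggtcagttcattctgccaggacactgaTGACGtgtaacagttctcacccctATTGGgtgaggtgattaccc
H2-Aa, chr17:34287852-34287972, minus strand: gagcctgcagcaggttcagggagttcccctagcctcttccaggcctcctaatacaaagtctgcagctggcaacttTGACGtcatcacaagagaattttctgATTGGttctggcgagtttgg

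The motif TGACG alone was found in 20.8% of all promoters, ATTGG in 37.4%, AANNGAAA in 23.9% and GGGATTCCC in 0.353%, each on either strand. AANNGAAA was found in 3 of the 6 genes (H2-K1, H2-D1 and B2m) and GGGATTCCC in 2 (H2-K1 and H2-D1). Psmb8 held none of these letters in its window and 1 match to TTCNNNGAA, a palindromic core, which 8.3% of all promoters held. A match is a description of these letters and not a measured binding site.

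Psmb9 and Tap1 lie head to head on chromosome 17 and share 1 short promoter, shown because both genes rose but by different factors. By their RefSeq gene ends, only 225 bases separate their starts. The stretch between them, with its motifs in capitals, holds TGACG once and the CCAAT box once, and has 0 matches to the other motifs.
Between Psmb9 and Tap1, chr17:34187331-34187555, plus strand (the strand of Tap1): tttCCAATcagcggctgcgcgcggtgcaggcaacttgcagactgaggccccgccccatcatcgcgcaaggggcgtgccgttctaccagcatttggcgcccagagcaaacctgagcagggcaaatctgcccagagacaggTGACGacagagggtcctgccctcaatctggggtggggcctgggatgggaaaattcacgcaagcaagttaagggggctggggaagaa

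The classical heavy chains H2-K1 and H2-D1 carry the peptide groove of class I molecules. H2-K1 (gene ID 14972, chromosome 17, 33996012 to 34000619, mm10) stood at 858, 739 and 687 CPM in HR- LP replicates 1 to 3, at 944, 1033 and 1092 CPM in HR+ LP, and at 1071, 1120 and 1190 CPM in ML. HR+ LP and ML did not overlap with HR- LP, and overlapped with each other. H2-K1 rose by 0.43 ± 0.14 (log2, SE) in HR+ LP against HR- LP (edgeR adjusted p = 0.0341) and by 0.57 ± 0.14 in ML against HR- LP (edgeR adjusted p = 0.00555). H2-D1 (gene ID 14964, chromosome 17, 35263094 to 35267497) stood at 614, 577 and 530 CPM in HR- LP, at 675, 782 and 813 CPM in HR+ LP, and at 743, 826 and 815 CPM in ML. It showed the same order without overlap, with differences of 0.40 ± 0.13 (edgeR adjusted p = 0.0398) in HR+ LP and 0.47 ± 0.13 (edgeR adjusted p = 0.013) in ML against HR- LP.

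These were the smallest differences of the 7 class I genes, and in HR+ LP against HR- LP their calls were the least stable. H2-K1 was called in 10 of 17 alternative fits (edgeR, DESeq2 or limma adjusted p from 0.00818 to 0.119). Its call was lost with only the groups compared in the fit (edgeR adjusted p = 0.055) and without HR- LP replicate 2 (0.0852) or 3 (0.089), HR+ LP replicate 1 (0.0525), 2 (0.103) or 3 (0.119), or ML replicate 2 (0.0581). H2-D1 was called in 7 of 17, with adjusted p from 0.0106 to 0.14, and the call was lost with DESeq2 size factors (edgeR adjusted p = 0.0608), with no filter on low counts (0.0584) and with only the groups compared (0.06). It was also lost without HR- LP replicate 2 (edgeR adjusted p = 0.0788) or 3 (0.0967), HR+ LP replicate 2 (0.129) or 3 (0.14), or ML replicate 1 (0.0503), 2 (0.0662) or 3 (0.059). In ML against HR- LP, H2-K1 was called in 17 of 17 fits and H2-D1 in 16 of 17, with the exception of the fit without ML replicate 2 (edgeR adjusted p = 0.0525). Of all 50-base windows in the transcripts of these genes, 9.63% in H2-K1 and 12.8% in H2-D1 also occur in another gene, mostly of the same family, so a small part of their reads could have been split or dropped in counting.

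B2m encodes beta-2-microglobulin, the light chain that every classical class I molecule needs to reach the surface. It stood at 266, 227 and 222 CPM in HR- LP, 469, 335 and 408 CPM in HR+ LP, and 571, 400.4 and 483 CPM in ML. Every HR- LP library was below every other library, and replicate 1 was the highest in each population. B2m (gene ID 12010, chromosome 2, 122147687 to 122153082) rose by 0.76 ± 0.17 in HR+ LP (edgeR adjusted p = 0.00727) and by 1.02 ± 0.17 in ML (edgeR adjusted p = 0.000645), a 1.70-fold and a 2.03-fold difference from HR- LP. No 50-base window of its transcripts was shared with another gene.

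Tap1 and Tap2 form the peptide transporter. Tap1 (gene ID 21354, chromosome 17, 34187556 to 34197225) stood at 46.0, 39.3 and 29.9 CPM in HR- LP, 60.5, 68.5 and 59.9 CPM in HR+ LP, and 71.3, 82.1 and 70.0 CPM in ML. None of the 3 populations overlapped for Tap1, in the order HR- LP, HR+ LP, ML. Its difference from HR- LP was 0.71 ± 0.16 in HR+ LP (edgeR adjusted p = 0.00775) and 0.95 ± 0.16 in ML (edgeR adjusted p = 0.000714). Tap2 (gene ID 21355, chromosome 17, 34204479 to 34216321) stood at 171, 150.2 and 114 CPM in HR- LP, 211, 333 and 273 CPM in HR+ LP, and 241, 415 and 340 CPM in ML. HR- LP again lay below the others, and within HR+ LP and ML replicate 1 was the lowest. Tap2 rose by 0.91 ± 0.23 (edgeR adjusted p = 0.0138) and 1.19 ± 0.24 (edgeR adjusted p = 0.0018), and the first call was lost without HR+ LP replicate 2 (0.74, edgeR adjusted p = 0.0671).

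The immunoproteasome subunit genes lie beside the transporter genes, and Psmb9 showed the largest difference of the 7 class I genes. Psmb9 (gene ID 16912, chromosome 17, 34182030 to 34187330) stood at 12.01, 9.10 and 5.76 CPM in HR- LP, 31.8, 37.8 and 29.8 CPM in HR+ LP, and 36.8, 45.2 and 37.0 CPM in ML. The highest HR- LP library was far below the lowest library of the other populations, which overlapped with each other. Psmb9 rose by 1.88 ± 0.24 in HR+ LP (3.68-fold, 95% interval 2.55 to 5.32, edgeR adjusted p = 0.00022) and by 2.14 ± 0.24 in ML (4.41-fold, 3.04 to 6.40, edgeR adjusted p = 3.37e-05). Psmb8 (gene ID 16913, chromosome 17, 34198195 to 34201454) stood at 75.3, 54.8 and 37.6 CPM in HR- LP, 97.8, 128 and 116 CPM in HR+ LP, and 129, 156 and 139 CPM in ML. Like Tap1, it separated all 3 populations without overlap. Psmb8 rose by 1.03 ± 0.22 (edgeR adjusted p = 0.00531) and by 1.33 ± 0.22 (edgeR adjusted p = 0.000559) against HR- LP.

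**Figure D2:**
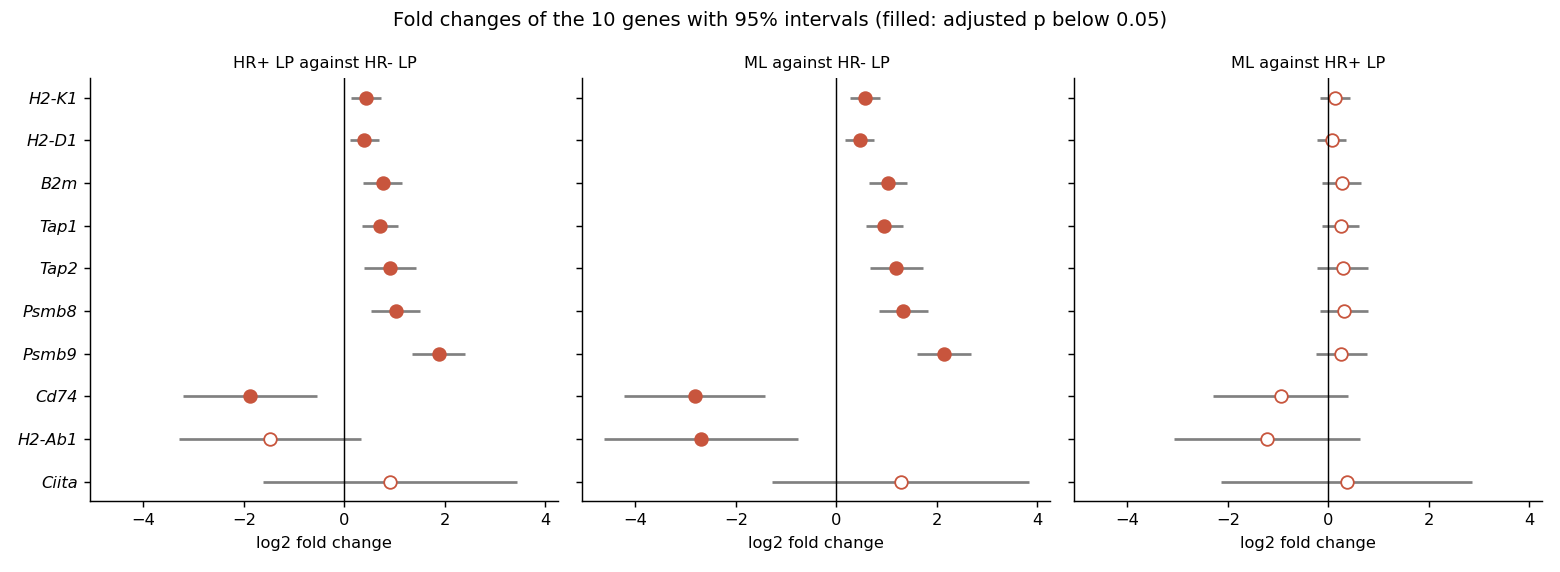
Log2 fold change of each gene (horizontal axis) in the 3 comparisons, with 95% intervals as lines and points filled where the adjusted p was below 0.05. The 7 class I genes lie to the right of 0 in both comparisons with HR- LP, from 0.40 for H2-D1 to 2.14 for Psmb9, and no point is filled between ML and HR+ LP.

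Between ML and HR+ LP the 7 class I genes differed by 0.07 (H2-D1) to 0.31 (Psmb8), with a median of 0.26, and edgeR adjusted p-values of 0.656 to 0.949. Their 95% intervals reached from -0.25 (Psmb9) to 0.80 (Tap2), so differences up to 1.74-fold for Tap2 lay within the interval. Without HR+ LP replicate 1 the H2-D1 difference changed sign, to -0.006. The median over all tested genes in the same comparison was 0.01, beside 0.005 in HR+ LP and 0.03 in ML against HR- LP, where the class I medians were 0.76 and 1.02. With library totals in place of TMM factors these all-gene medians moved to 0.12, 0.06 and 0.19 and the class I medians to 0.87, 0.31 and 1.19, in the order HR+ LP against HR- LP, ML against HR+ LP, and ML against HR- LP.

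HR- LP replicate 3 was the lowest HR- LP library for 7 of the 7 class I genes. Without it, 5 of the 10 genes were called higher and 1 lower in HR+ LP against HR- LP, and 7 and 1 in ML against HR- LP. Psmb9 then differed by 1.65 (edgeR adjusted p = 0.000194), Psmb8 by 0.81 (0.00761), B2m by 0.71 (0.0224), Tap1 by 0.56 (0.0138) and Tap2 by 0.76 (0.0435) between HR+ LP and HR- LP. H2-K1 and H2-D1 were at 0.36 and 0.35 and were no longer called.

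Per length of transcript, levels can be set beside each other across genes. On the scale of CPM per kilobase, H2-K1 had the highest mean of the 10 genes in HR- LP (462 ± 53.1, SD, n = 3), HR+ LP (622 ± 45.2) and ML (685 ± 36.4). Its libraries lay above those of B2m in HR- LP and HR+ LP but overlapped with them in ML, where B2m (665) was above H2-K1 (650.4) in replicate 1. H2-D1 (330 ± 24.2, 436 ± 41.8 and 458 ± 25.9) and B2m (278 ± 28.2, 471 ± 78.5 and 565 ± 99.3) followed, and their libraries overlapped in each population. Tap2 (58.2 ± 11.8, 110 ± 24.5 and 133 ± 35.1) and Psmb8 (45.7 ± 15.4, 93.3 ± 12.5 and 115 ± 11.2) came next and overlapped likewise. Tap1 and Psmb9 were at 13.02 ± 2.75 and 11.1 ± 3.88 CPM per kilobase in HR- LP, within the spread of each other. In HR+ LP Psmb9 was above Tap1, at 41.1 ± 5.17 against 21.3 ± 1.62, and in ML at 49.2 ± 5.99 against 25.2 ± 2.25, although both start from the same promoter stretch. Cd74 (3.27 ± 1.49, 0.893 ± 0.245 and 0.458 ± 0.352), H2-Ab1 (2.29 ± 1.87, 0.817 ± 0.297 and 0.351 ± 0.0999) and Ciita (0.0558 ± 0.0567, 0.107 ± 0.0464 and 0.139 ± 0.0941) were below every class I gene in every population.

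The exchange of catalytic subunits was followed as the ratio of each immunoproteasome subunit to the standard subunit it replaces, both per kilobase. Psmb9 to Psmb6 was 0.117, 0.105 and 0.0825 in HR- LP, 0.428, 0.4 and 0.365 in HR+ LP, and 0.523, 0.556 and 0.419 in ML. HR- LP lay below all other libraries, and the other populations overlapped. An exact permutation test of either comparison with HR- LP gave p = 0.1, the smallest 3 against 3 libraries can give (two-sided), with log2 differences of 1.98 and 2.30. Psmb8 to Psmb5 averaged 1.1 ± 0.373, 1.54 ± 0.098 and 1.76 ± 0.116 (SD, n = 3) in HR- LP, HR+ LP and ML, also with p = 0.1 in the exact permutation test of both comparisons with HR- LP. HR- LP replicate 3, at 0.67, was the lowest, and replicates 1 and 2 were at 1.26 and 1.36. Psmb5 shares 54.1% of its 50-base windows with other genes, mostly the predicted gene Gm3375, so its level is uncertain. Psmb10 to Psmb7 averaged 0.228 ± 0.059, 0.252 ± 0.0312 and 0.26 ± 0.0725 and overlapped between all populations (exact permutation p = 0.6 for either comparison with HR- LP and 1 between ML and HR+ LP, two-sided).

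**Figure D3:**
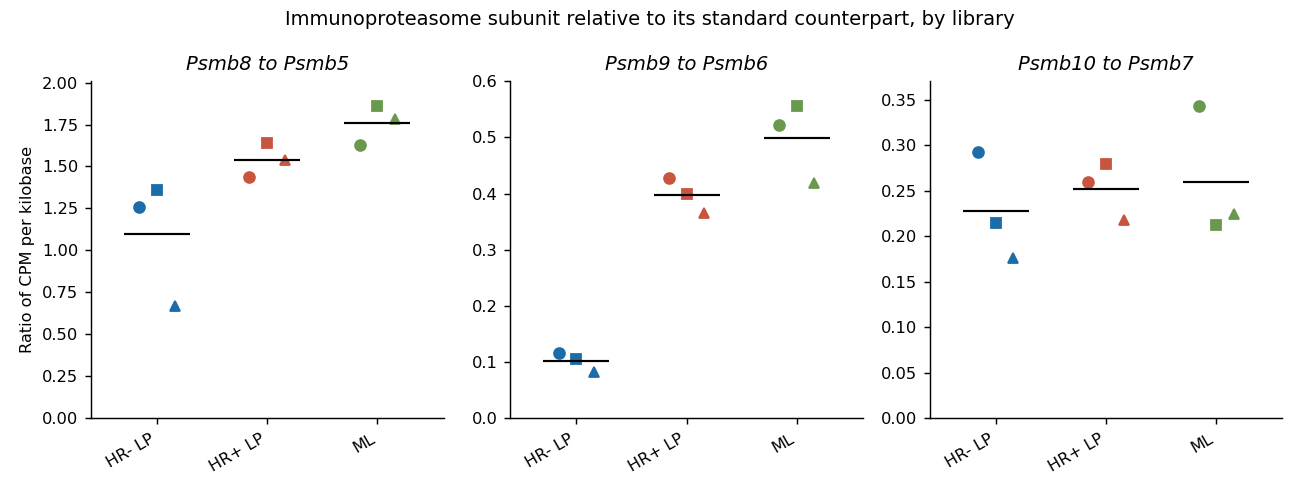
Ratio of CPM per kilobase (vertical axes from 0) of each immunoproteasome subunit to its standard counterpart in the 9 libraries; circles, squares and triangles are replicates 1, 2 and 3, and lines are means. The Psmb9 to Psmb6 ratio is at most 0.117 in HR- LP and at least 0.365 elsewhere, whereas the Psmb10 to Psmb7 ratios overlap.

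Of the 5 immunoproteasome and PA28 genes, 2 rose (Psmb8 and Psmb9) and 0 fell in HR+ LP against HR- LP, with a median difference of 0.49 on the log2 scale. Among all tested genes 17.2% rose and 12.8% fell there, and 23.3% and 21.3% in ML. In ML against HR- LP 4 of these 5 genes rose, with Psme1 and Psme2, which encode the PA28 activator, added at 0.41 ± 0.14 (edgeR adjusted p = 0.0323) and 0.74 ± 0.22 (edgeR adjusted p = 0.0195). Psme2 shares 28.3% of its 50-base windows with other genes, nearly all with Psme2b. Psme1 was called in 8 of 17 alternative fits of that comparison and Psme2 in 13 of 17. The Psme1 call was lost with only the groups compared (edgeR adjusted p = 0.078) and without any 1 of 8 libraries (0.0507 to 0.117), all but HR- LP replicate 1. The Psme2 call was lost with only the groups compared (edgeR adjusted p = 0.0512) and without HR- LP replicate 2 (0.0504), ML replicate 2 (0.0624) or ML replicate 3 (0.059). In HR+ LP against HR- LP, Psme1 stood at 0.38 ± 0.14 and was not called (edgeR adjusted p = 0.0614). It was called in 4 of 17 alternative fits of that comparison: with library totals (edgeR adjusted p = 0.0257), limma voom (limma adjusted p = 0.039), the replicate number as a block (edgeR adjusted p = 0.0462) and without HR- LP replicate 1 (0.0097). Psme2 was called there in 1 of 17, without HR- LP replicate 1 (edgeR adjusted p = 0.0115). Psmb10 differed by 0.27 ± 0.25 in HR+ LP and 0.41 ± 0.25 in ML against HR- LP and was not called (edgeR adjusted p = 0.451 and 0.215); without HR- LP replicate 1 it was called (0.00788 and 0.0019). Among the 3 standard subunits only Psmb5 was called, at 0.50 ± 0.16 (edgeR adjusted p = 0.0332) in HR+ LP, a call held in 9 of 17 alternative fits by rounded adjusted p, and at 0.63 ± 0.16 (edgeR adjusted p = 0.00785) in ML. The first Psmb5 call was lost with DESeq2 size factors (edgeR adjusted p = 0.0557), with only the groups compared (0.0786) and without HR- LP replicate 2 (edgeR adjusted p = 0.0842), HR+ LP replicate 1 (0.0539), 2 (0.114) or 3 (0.0917), or ML replicate 2 (0.0599). Without ML replicate 3, not among the 9, it stood just under the threshold before rounding (edgeR adjusted p = 0.05 as rounded). Psmb6 differed by -0.05 ± 0.17 and -0.11 ± 0.17 and Psmb7 by 0.16 ± 0.17 and 0.30 ± 0.17, none of them called.

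Other class I heavy chains and class I-like genes moved mostly in one direction. Of 19 tested genes on this list, which holds H2-K1 and H2-D1, 9 rose and 0 fell in HR+ LP against HR- LP (median 0.45), and 11 rose and 1 fell in ML (median 0.64). The shares of all tested genes were 17.2% and 12.8% in HR+ LP, and 23.3% and 21.3% in ML. H2-Q7 differed most among those named, from 4.92, 8.28 and 5.22 CPM in HR- LP to 25.4, 24.9 and 30.04 CPM in HR+ LP and 43.2, 30.3 and 47.1 CPM in ML. The rises were 2.11 ± 0.24 (edgeR adjusted p = 9.97e-05) and 2.70 ± 0.25 (edgeR adjusted p = 6.16e-06). H2-Q6 rose by 1.71 ± 0.20 and 2.13 ± 0.21, H2-T22 by 1.06 ± 0.19 and 1.21 ± 0.19, and H2-Q4 by 0.79 ± 0.12 in ML. These nonclassical genes share 26.5% (H2-Q7), 35% (H2-Q6), 53.5% (H2-T22) and 36.4% (H2-Q4) of their 50-base windows with other genes, so reads may have been assigned between them. Fcgrt, which encodes the neonatal Fc receptor that carries IgG across epithelia, rose by 0.89 ± 0.16 in HR+ LP (edgeR adjusted p = 0.00213). The gene that fell in ML was Cd1d1, which presents lipids, at -1.93 ± 0.59 (edgeR adjusted p = 0.0204); it was singled out after its values were seen.

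In the list of peptide transport and class I loading, which holds B2m, Tap1 and Tap2, 4 of 11 genes rose and 0 fell in HR+ LP and 5 rose and 0 fell in ML against HR- LP. Among all tested genes 17.2% rose and 12.8% fell in HR+ LP, and 23.3% and 21.3% in ML. The list medians were -0.02 and 0.07, close to those of all tested genes. Tapbp, which encodes tapasin, the bridge between TAP and the heavy chain, rose by 0.41 ± 0.14 in HR+ LP (edgeR adjusted p = 0.0469) and by 0.55 ± 0.14 in ML (edgeR adjusted p = 0.00874). It shares 23.2% of its 50-base windows with other genes. The first Tapbp call held in 6 of 17 alternative fits. It was lost with DESeq2 size factors (edgeR adjusted p = 0.0625), with no filter on low counts (0.0606) and with only the groups compared (0.0752). Of the fits without 1 library, it was lost without HR- LP replicate 2 (edgeR adjusted p = 0.0729) or 3 (0.121), without HR+ LP replicate 1 (0.144), 2 (0.149) or 3 (0.0551), and without ML replicate 1 (0.0672), 2 (0.0785) or 3 (0.0671). Canx, which encodes the chaperone calnexin and was named after its values were seen, rose by 0.43 ± 0.15 in ML (edgeR adjusted p = 0.0374). The other chaperones and trimming enzymes, among them Calr, Pdia3 and Erap1, named after their values were seen, were not called in either comparison.

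Cd74, the invariant chain, was the member of the class II side with the most reads, and it fell in HR+ LP and ML. It stood at 6.78, 4.51 and 2.58 CPM in HR- LP, 1.65, 0.98 and 1.16 CPM in HR+ LP, and 0.234, 0.511 and 1.201 CPM in ML. All HR- LP libraries were above all others, and the other populations overlapped. Cd74 (gene ID 16149) fell by 1.87 ± 0.61 in HR+ LP (3.66-fold lower, edgeR adjusted p = 0.0377) and by 2.82 ± 0.64 in ML (7.05-fold lower, edgeR adjusted p = 0.00403) against HR- LP. The first call held in 11 of 17 alternative fits. It was lost with library totals alone (edgeR adjusted p = 0.0505) and without HR- LP replicate 1 (0.11) or 2 (0.0638) or HR+ LP replicate 1 (0.0714), 2 (0.129) or 3 (0.109), and the second call held in 17 of 17. Counts behind these levels were low, at 336, 441 and 72 reads in HR- LP, 173, 63 and 106 in HR+ LP and 7, 24 and 51 in ML.

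H2-Ab1 encodes the beta chain of the class II molecule I-A. It stood at 3.23, 0.297 and 4.69 CPM in HR- LP, 1.38, 0.809 and 0.734 CPM in HR+ LP, and 0.536, 0.298 and 0.424 CPM in ML. HR- LP replicate 2 was below every ML library, so these groups overlapped, while replicates 1 and 3 were above all other libraries. H2-Ab1 (gene ID 14961, chromosome 17, 34263227 to 34269418) was called between ML and HR- LP, at -2.70 ± 0.88 (edgeR adjusted p = 0.0272), in 10 of 17 alternative fits. The call was lost with limma voom (-1.24, limma adjusted p = 0.483), with only the groups compared (edgeR adjusted p = 0.055), and without HR- LP replicate 1 (0.0549) or 3 (0.0931) or ML replicate 1 (0.0553), 2 (0.0903) or 3 (0.0735). In HR+ LP against HR- LP it was not called, at -1.48 ± 0.82 (edgeR adjusted p = 0.209), and limma voom put the difference at 0.02 (limma adjusted p = 0.99). Without HR- LP replicate 2 it was called, at -2.01 (edgeR adjusted p = 0.0193).

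Ciita, the class II coactivator, was close to the limit of detection. Its levels were 0.646, 0.307 and 0 CPM in HR- LP, 0.81, 0.311 and 0.712 CPM in HR+ LP, and 1.37, 0.319 and 0.683 CPM in ML. The populations overlapped, and HR- LP replicate 3 held 0 reads, which allows up to 0.107 CPM at a floor of 3 counts (counting error only). Ciita (gene ID 12265, chromosome 16, 10480014 to 10531064) was not called in any comparison, with differences of 0.92 ± 1.15 in HR+ LP (edgeR adjusted p = 0.593) and 1.28 ± 1.16 in ML (edgeR adjusted p = 0.405) against HR- LP. Their 95% intervals ran from -1.61 to 3.44 and from -1.28 to 3.84, so they covered differences in either direction. The counts behind these levels were 32, 30 and 0 reads in HR- LP, 85, 20 and 65 in HR+ LP, and 41, 15 and 29 in ML.

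Immune cells express class II genes at high levels, and their markers were therefore measured in the same libraries. The summed level of 22 immune and antigen-presenting cell markers was 11.4 to 15.8 CPM in HR- LP, 6.33 to 9.19 CPM in HR+ LP and 4.99 to 5.81 CPM in ML. Cd68, also a lysosomal protein of other cells, made up most of the sum in HR- LP, and the other 21 markers, each below 3 CPM in every library, summed to 2.73 to 5.33, 1.93 to 3.56 and 2.88 to 3.21 CPM. Those sums overlapped between the populations. The B cell marker Ms4a1 was at 0 in all libraries. Of the 11 immune markers with enough reads to be tested, 1 rose (Itgam) and 1 fell (Cd68) in each comparison with HR- LP. Among all tested genes 17.2% rose and 12.8% fell in HR+ LP, and 23.3% and 21.3% in ML. Called or not, 9 of the 11 had negative and 2 positive differences in HR+ LP (median -1.06). In ML 8 were negative and 3 positive (median -2.10). The summed level of Cd74, H2-Ab1, H2-Aa and H2-Eb1 was 8.20 to 13.1 CPM in HR- LP, 2.72 to 4.16 in HR+ LP and 1.005 to 3.58 in ML, of the same order as the immune marker sums. The part of immune cells in the class II values was not tested.

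**Figure D4:**
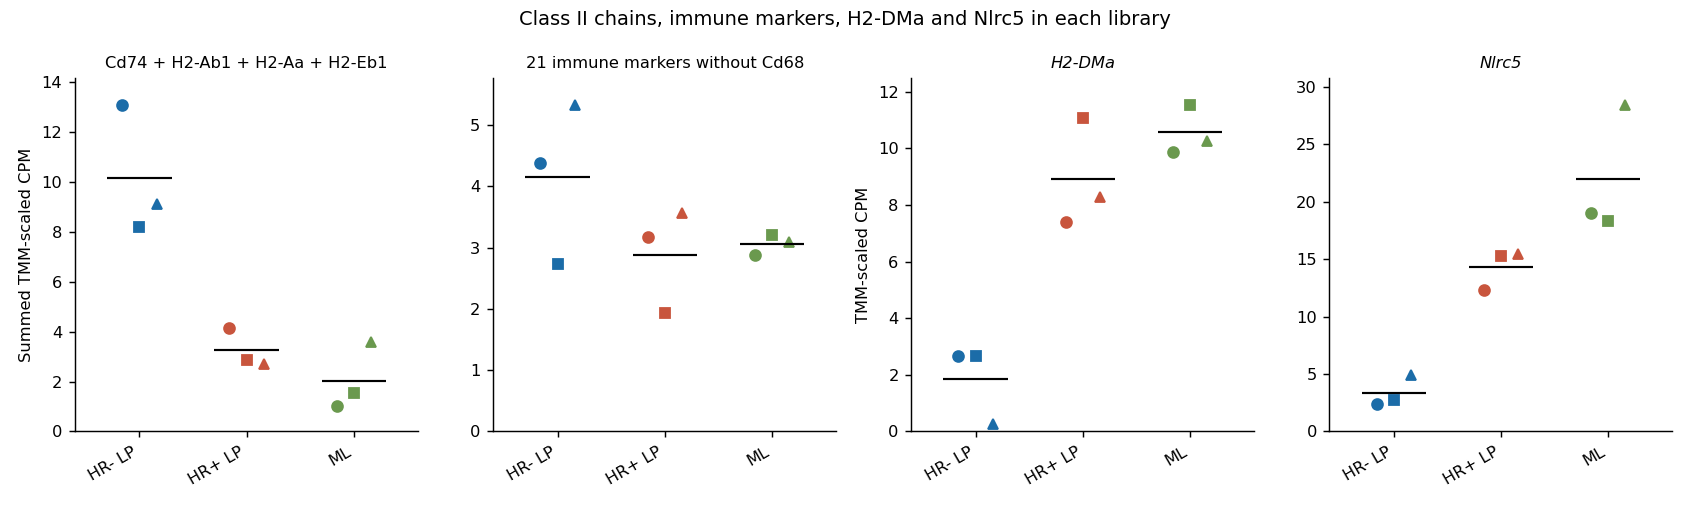
Summed CPM of 4 class II genes and of 21 immune markers, and CPM of H2-DMa and Nlrc5 (vertical axes from 0), in the 9 libraries, with lines at the means of 3. The class II sum is above 8 CPM in every HR- LP library and below 5 in all others, the immune marker sums overlap, and H2-DMa and Nlrc5 are lowest in HR- LP.

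The class II list did not move as a whole. Against HR- LP, 17.2% of all tested genes rose and 12.8% fell in HR+ LP, and 23.3% and 21.3% in ML. Of 7 tested class II chain and exchange genes, 2 rose and 1 fell in HR+ LP (median -0.89), and 2 rose and 3 fell in ML (median -0.60), against HR- LP. Those that rose were H2-DMa and H2-DMb1, the chains of the peptide exchange factor, and those that fell were Cd74 in both comparisons and H2-Ab1 and H2-Aa in ML. H2-DMa stood at 2.66, 2.68 and 0.251 CPM in HR- LP, 7.42, 11.1 and 8.29 CPM in HR+ LP, and 9.88, 11.6 and 10.3 CPM in ML, without overlap between HR- LP and the others. It rose by 2.22 ± 0.57 in HR+ LP (edgeR adjusted p = 0.0138) and by 2.46 ± 0.58 in ML (edgeR adjusted p = 0.00516). H2-DMb1 rose by 0.79 ± 0.21 (edgeR adjusted p = 0.0159) and 0.80 ± 0.21 (edgeR adjusted p = 0.00959), although 22.7% of its 50-base windows are shared, with its neighbour H2-DMb2. Without HR+ LP replicate 2 the calls of H2-DMa (edgeR adjusted p = 0.0521) and H2-DMb1 (0.0784) in HR+ LP were lost. H2-Aa, named after its values were seen, differed by -1.72 ± 0.67 in HR+ LP (edgeR adjusted p = 0.0774) and fell by 2.01 ± 0.69 in ML (edgeR adjusted p = 0.034). H2-Ea and H2-Ob, likewise named after their values were seen, were at 0 in all libraries.

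Endosomal enzymes that prepare class II peptides went both ways. Of 8 genes, 2 rose and 3 fell in HR+ LP against HR- LP (median -1.02), and the same counts held in ML (median -0.87). Among all tested genes 17.2% rose and 12.8% fell in HR+ LP, and 23.3% and 21.3% in ML. Ifi30, a thiol reductase that opens disulphide bonds of antigens, stood at 111, 110 and 106 CPM in HR- LP, 50.4, 46.4 and 59.8 CPM in HR+ LP, and 30.01, 27.3 and 28.5 CPM in ML. It separated all 3 populations, falling by 1.06 ± 0.13 (edgeR adjusted p = 0.000156) in HR+ LP against HR- LP and by 0.87 ± 0.13 (edgeR adjusted p = 0.00112) in ML against HR+ LP. Ctsh, a cathepsin, likewise fell by 1.07 ± 0.15 and then by 0.80 ± 0.15 (edgeR adjusted p = 0.000374 and 0.00511). These 2 genes were the only ones on any of the MHC lists that were called between ML and HR+ LP. Ctsl, a cathepsin that cuts the invariant chain in thymic epithelium, fell by 1.03 ± 0.15 in HR+ LP (edgeR adjusted p = 0.000489), and shares 26.3% of its 50-base windows with other genes. Ctsb and Lgmn rose by 0.49 ± 0.13 and 0.48 ± 0.12, and Lgmn was not called without HR+ LP replicate 1 (edgeR adjusted p = 0.0577). Ctss, the main invariant chain protease of antigen-presenting cells, also named after its values were seen, was at most 1.31 CPM and was not called.

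Among transactivators, Nlrc5 differed most in HR+ LP and ML against HR- LP. Its level was 2.36, 2.74 and 4.90 CPM in HR- LP, 12.3, 15.2 and 15.5 CPM in HR+ LP, and 19.0, 18.3 and 28.4 CPM in ML. The 3 populations did not overlap. Nlrc5 rose by 2.12 ± 0.30 in HR+ LP (4.36-fold, edgeR adjusted p = 0.000427) and by 2.74 ± 0.31 in ML (6.66-fold, edgeR adjusted p = 3.04e-05), with 0.61 ± 0.28 between ML and HR+ LP (edgeR adjusted p = 0.394). HR- LP replicate 3, the lowest for the class I genes, was the highest of its population for Nlrc5. Irf1, an interferon-induced activator of class I genes, stood at 59.5, 75.2 and 36.4 CPM in HR- LP, 94.3, 161 and 168 CPM in HR+ LP, and 111, 177 and 183 CPM in ML, and rose by 1.31 ± 0.30 (edgeR adjusted p = 0.00773) and 1.46 ± 0.30 (edgeR adjusted p = 0.00235).

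On the whole list of 12 transactivators and promoter factors, 2 rose and 2 fell in HR+ LP (median 0.26), and 4 rose and 4 fell in ML (median 0.32), against HR- LP. The shares of all tested genes were 17.2% and 12.8% in HR+ LP, and 23.3% and 21.3% in ML. Rfxap, a subunit of the RFX factor, fell by 1.11 ± 0.15 in HR+ LP (edgeR adjusted p = 0.000266) and by 1.66 ± 0.15 in ML (edgeR adjusted p = 5.8e-06), from 29.8 to 33.3 CPM in HR- LP to 13.8 to 15.7 and 9.77 to 10.4 CPM. Nfyc, a subunit of NF-Y, shares 22.2% of its 50-base windows with another gene. Its level fell by 0.57 ± 0.16 in HR+ LP (edgeR adjusted p = 0.0237), a call held in 11 of 17 alternative fits. It was lost without HR- LP replicate 1 (edgeR adjusted p = 0.0544) or HR+ LP replicate 1 (0.055), 2 (0.0947) or 3 (0.0827), with only the groups compared (0.0569) and with library totals (0.086). In ML Nfya fell by 0.92 ± 0.17 (edgeR adjusted p = 0.00118) and Nfyb rose by 0.93 ± 0.16 (edgeR adjusted p = 0.000643).

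Against HR- LP, 29.9% of all tested genes were called in HR+ LP and 44.6% in ML. Of 4 genes for the interferon gamma receptor and its kinases, edgeR called only Jak2, no larger a share. It stood at 81.9, 97.8 and 57.6 CPM in HR- LP, 164, 200.4 and 188 CPM in HR+ LP, and 176, 260.5 and 251 CPM in ML, and rose by 1.22 ± 0.21 (edgeR adjusted p = 0.00148) and 1.53 ± 0.21 (edgeR adjusted p = 0.000144). The receptor chains Ifngr1 and Ifngr2 differed by -0.34 ± 0.18 and 0.38 ± 0.17 in HR+ LP, and Jak1 by 0.08 ± 0.13, with none called. Without HR- LP replicate 3, Ifngr1 was called (edgeR adjusted p = 0.0172 in HR+ LP and 0.00353 in ML). In ML against HR- LP it was called in 5 of 17 alternative fits by rounded adjusted p, the others being DESeq2 (DESeq2 adjusted p = 0.04), edgeR with DESeq2 size factors (edgeR adjusted p = 0.0488), a filter of CPM over 1 in 3 libraries (0.0456) and the replicate block (0.0388). Limma voom, not among these, stood just under the threshold before rounding (limma adjusted p = 0.05 as rounded).

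Ligands that tune T cell responses were also counted. Of 8 genes, 5 had enough reads to be tested, and 4 of these rose in both HR+ LP and ML against HR- LP, with a median of 1.54 and 1.70. The shares of all tested genes that rose were 17.2% and 23.3%. Vtcn1 (B7-H4), an inhibitory ligand, rose by 1.67 ± 0.27 from a range of 36.8 to 52.3 CPM to a range of 99.96 to 174 CPM in HR+ LP (edgeR adjusted p = 0.000984). Cd276 (B7-H3) rose by 1.21 ± 0.21 (edgeR adjusted p = 0.00148). Cd274 (PD-L1) rose by 1.54 ± 0.38 (edgeR adjusted p = 0.0109), and without HR+ LP replicate 1 it was not called (0.054). Cd40 held 0 reads in all HR- LP libraries and 143 in HR+ LP and 98 in ML, at least 32.1-fold and 48.0-fold higher against a floor of 3 counts over the HR- LP libraries. The costimulators Cd80 and Cd86 had too few reads to be tested, at 0.101 CPM or less in any library, and were named after their values were seen.

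The genes around Tap1 were compared by position, since several members lie in one cluster. Within 200 kilobases (kb) of the Tap1 start, distances being to gene midpoints, the tested genes on the side of Psmb9 were H2-DMb1 at -30.8 kb, H2-DMb2 at -40.2 kb, H2-DMa at -58.2 kb and Brd2 at -70.1 kb, and others farther out. H2-DMb2, between the called DM genes and at a mean of 0.291 CPM, was not called, at -0.72 ± 1.19 in HR+ LP against HR- LP (edgeR adjusted p = 0.688). Brd2, which encodes a bromodomain reader of acetylated histones and was named with the other neighbours after its values were seen, fell by 0.43 ± 0.14 in HR+ LP against HR- LP (edgeR adjusted p = 0.034). Farther out, Col11a2 at -134.8 kb rose by 1.52 ± 0.46 in the same comparison (edgeR adjusted p = 0.0293), so the rises were not confined to MHC genes. H2-K1 at -189.2 kb was also called higher, while Rxrb, Slc39a7, H2-Ke6 and Ring1 were not called. On the other side Psmb8 at 12.3 kb and Tap2 at 22.8 kb rose, while H2-Ab1 at 78.8 kb, H2-Aa at 97.7 kb and H2-Eb1 at 123.7 kb had negative differences that were not called. H2-DMb1, Psmb9, Tap1, Psmb8 and Tap2 were all called higher, with no uncalled tested gene between them. Psmb9 shares 4.19% of its 50-base windows with Tap1, and Tap1 2.88% with Psmb9. Psmb8 shares 11.9% and Tap2 11.6% of their 50-base windows with other genes, mostly overlapping or neighbouring predicted genes (Gm20496 and Gm15821). The library kit does not mark strand, so reads of overlapping genes cannot be told apart.

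**Figure D5:**
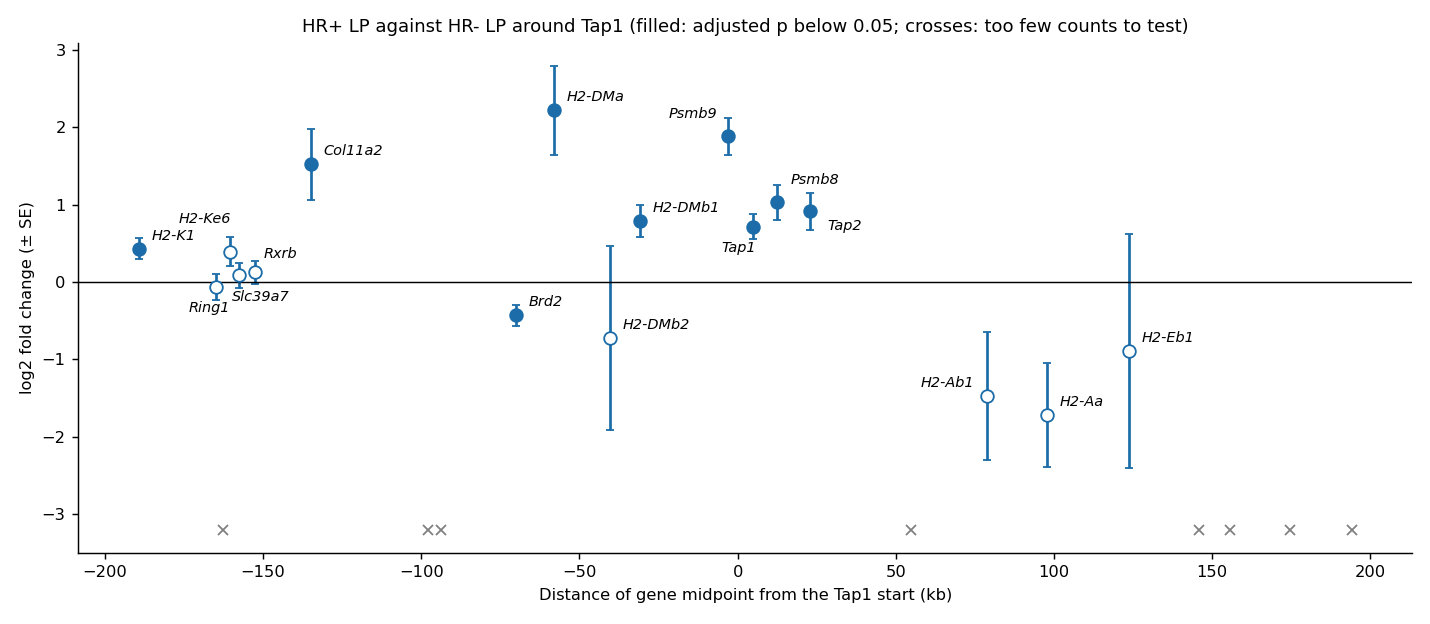
Log2 fold change of HR+ LP against HR- LP (vertical axis, bars are SE) for genes within 200 kb of the Tap1 start, by distance of the gene midpoint in kb; filled points had an adjusted p below 0.05 and crosses mark genes with too few reads to test. Psmb9, Tap1, Psmb8 and Tap2 lie between 0.71 and 1.88, and H2-Ab1, H2-Aa and H2-Eb1 lie below 0 with open points.

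Ratios between members within a library showed where they moved unequally. B2m to H2-K1, per kilobase, was 0.595, 0.59 and 0.619 in HR- LP, 0.954, 0.622 and 0.716 in HR+ LP, and 1.02, 0.686 and 0.778 in ML. All HR+ LP and ML libraries were above all HR- LP libraries (exact permutation p = 0.1, the smallest possible, two-sided), and replicate 1 was the highest in both. Tap2 to Tap1 was 4.41, 4.53 and 4.5 in HR- LP, 4.14, 5.77 and 5.4 in HR+ LP, and 4, 5.99 and 5.74 in ML. Here replicate 1 was the lowest of both HR+ LP and ML, and the populations overlapped (exact permutation p = 0.4 for either comparison with HR- LP). H2-K1 to H2-D1 stayed between 1.35 and 1.54 in all 9 libraries, with exact permutation p = 0.5 and 0.2 for HR+ LP and ML against HR- LP.

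The genes most like Tap1 and Cd74 across the 9 libraries were listed as a description, by Pearson correlation of log2 CPM over 9134 genes outside the lists. For Tap1 they were Ccng1 (r = 0.995), Trappc3 (0.994), Galk2 (0.994), Acsf2 (0.993) and Gss (0.993). For Cd74 they were Arl4c (r = 0.985), Slc35g1 (0.980), Chchd7 (0.976), Mtcp1 (0.972) and Id2 (0.970). The 9 points share 3 populations, so any gene with the same order of populations scores high.

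The libraries held 27219103 to 108119756 counts, with 15239 to 17735 genes detected in each. The luminal keratins and adhesion markers Krt8, Krt18, Krt19, Epcam, Cldn3 and Cldn4 summed to 12885 to 17241 CPM in every library. Cd14 and Pgr followed the gates: Cd14 was at 995.6 to 1179.8 CPM in HR- LP, 284 to 348 in HR+ LP and 18.3 to 30.4 in ML, and Pgr at 6.12 to 15.8, 204 to 329 and 276 to 557 CPM. Pgr was thus high in the ML libraries, whose labels call them YFP+. Endothelial markers summed to 8.98 to 17.96 CPM in HR- LP, 43.4 to 63.9 in HR+ LP and 61.6 to 82.0 in ML, a difference carried by Vwf alone. The other 7 summed to 7.06 to 12.55 CPM in HR- LP, 3.67 to 8.76 in HR+ LP and 5.63 to 8.15 in ML. Of these 8 markers, none was at 0 in all libraries, 1 rose (Vwf) and 0 fell in either comparison with HR- LP. For these and the next marker lists, the shares of all tested genes were 17.2% higher and 12.8% lower in HR+ LP, and 23.3% and 21.3% in ML. Of 8 fibroblast markers 1 rose (Dcn) and 6 fell in HR+ LP, and 1 rose (Dcn) and 3 fell in ML. Their sums overlapped, at 76.2 to 126 CPM in HR- LP, 61.6 to 268 CPM in HR+ LP and 108 to 318 CPM in ML. Without Dcn the other 7 summed to 69.7 to 116 CPM in HR- LP, 11.7 to 24.1 in HR+ LP and 18.1 to 34.95 in ML, higher in every HR- LP library than elsewhere. Of 8 basal markers, 0 rose and 1 fell in HR+ LP and 1 rose and 2 fell in ML, against HR- LP. The part of these markers' cells in the class I and class II values was not tested.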

How the data were processed

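Per the labels' protocols, the submitters isolated total RNA with miRNeasy, removed DNA and built libraries with Illumina's TruSeq RNA kit (v2), which does not mark strand. Values deposited by the authors are raw counts per gene, made with featureCounts on mm10 per the submitters' processing notes. No source used names the aligner or says how multi-mapping reads were treated. The table of the series and the files of single libraries were the same (0 cells differed). Gene IDs were matched to RefSeq symbols for 25275 of 27179 genes (93.0%).

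Genes were filtered with filterByExpr, scaled by TMM and tested with edgeR's quasi-likelihood test (two-sided) on all 9 libraries without a covariate, adjusted by Benjamini-Hochberg over 15910 genes and called at 0.05. The procedure was tested on simulated data. Per kilobase values used the deposited gene lengths. Ratios were compared with exact permutation tests. The 17 alternatives were other scalings, DESeq2, limma voom, other filters, only the groups compared, the replicate block and each library left out. The 10 genes, the gene lists and the tests were chosen with earlier results of these data known. Besides the 10, up to 4 genes of each list with the smallest p among those called, and every gene of lists of 5 or fewer, are named; other genes, the markers and neighbours of Tap1 included, were named after their values were seen. Software comprised edgeR 4.0.16, DESeq2 1.42.0 and limma 3.58.1 under R 4.3.3, and matplotlib 3.10.9 under Python 3.11.15.

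The labels number replicates 1 to 3 in each population without saying what a number marks. Deviations from group means of HR+ LP and ML libraries with the same number correlated at 0.183, 0.121 and 0.189. Libraries with different numbers were not compared, so these values cannot show whether a number marks a pair. The replicate number entered only the replicate block, and the main fit left it out. For HR+ LP and HR- LP the values were 0.133, 0.0389 and 0.147, and for ML and HR- LP 0.0526, 0.0254 and 0.0849. At 27219103 counts or more per library, the spread between libraries sets the precision of genes above a few CPM. Floors cover counting error only.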

Additional observations from a re-analysis of the deposited data

How the results depend on the processing

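With each library left out in turn, 4 to 7 of the 10 genes were called higher in HR+ LP than in HR- LP and 0 to 1 lower; the low values came without HR+ LP replicate 2, which left 4 and 0. Cd74 was also not called, leaving 0 lower, without HR- LP replicate 1 and HR+ LP replicates 1 or 3, and with library totals alone. In ML against HR- LP 6 to 7 were called higher and 1 to 2 lower, and limma voom and the fit of only the groups compared left 1 lower. Between ML and HR+ LP the count was 0 in both directions under all alternatives. The cause of these changes was not tested. With the replicate block 7 and 1, 0 and 0, and 7 and 2 genes were called higher and lower, as without it, in HR+ LP against HR- LP, ML against HR+ LP, and ML against HR- LP. The block changed the call of Psme1 (adjusted p = 0.0462) in the first of these and of Ifngr1 (adjusted p = 0.0388) in the last, edgeR's quasi-likelihood test in both.

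Signs reversed in 12 cases, none of a called difference. Without single libraries, ranges were -0.175 to 0.097 for Psmb6 in HR+ LP against HR- LP and -0.237 to 0.035 in ML against HR- LP; in ML against HR+ LP they were -0.138 to 0.036 for Psmb6, -0.292 to 0.739 for Ciita, -0.006 to 0.124 for H2-D1 and -0.013 to 0.068 for Jak1. H2-Ab1 moved to 0.016 with limma voom in HR+ LP against HR- LP. With library totals Psmb6 moved to 0.055 in the same comparison and 0.049 in ML against HR- LP. The reversals came without HR- LP replicate 1 (Psmb6, 0.097 and 0.035), HR+ LP replicate 1 (Psmb6, 0.033, and H2-D1, -0.006), HR+ LP replicate 2 (Psmb6, 0.036, and Jak1, -0.005), ML replicate 1 (Psmb6, 0.023, and Ciita, -0.292) and ML replicate 3 (Jak1, -0.013). Mean CPM of the 10 genes moved by less than 1 SD under other scalings. Each population has 3 libraries and Ciita was below 1.5 CPM in all of them, which limits the class II values.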
